A study of Bos taurus and Sus scrofa with 6 samples.

Results

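The 10 genes described here belong to the piRNA pathway: DDX4, MAEL, TDRD1, TDRD9, RNF17, MOV10L1, PIWIL2, PLD6, GTSF1 and STK31. They were chosen by their gene symbols, with earlier results of these data known. Each symbol was listed exactly 1 time in the gene table of cattle, which holds 19994 genes, and of pig, which holds 22694. Their RNA was measured by single-cell RNA-sequencing of testicular cells from 3 prepubertal Holstein cattle aged 4.5 months and 3 prepubertal mixed breed pigs aged 3 months, with 1 library per animal and no treatment. Testes had been removed by castration and digested to a suspension of total testicular cells, so the libraries hold germ cells together with the somatic cells of the testis. Species, breed and age change together between the groups, and their parts in any difference between cattle and pig cannot be told apart.

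PIWI-interacting RNAs (piRNAs) are small RNAs of the germline that guide PIWI proteins to transposon transcripts and keep transposons silent. Long precursor RNAs are bound and unwound by helicases, cut at the mitochondrial surface, loaded onto PIWI proteins and amplified in cytoplasmic granules called nuage, where proteins with Tudor domains hold PIWI proteins by their methylated arginines. In the mammalian testis the pathway is active in fetal germ cells, spermatogonia and spermatocytes, and loss of its members in mice generally arrests spermatogenesis.

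The windows around the annotated gene starts of 3 members are shown first, because they share a sequence motif. The E-box CACGTG, a palindrome that reads the same on both strands, was found in 3 (MOV10L1, PLD6 and STK31) of the 9 member windows searched in pig. The windows come from the RefSeq annotation of Sscrofa11.1, where all 10 symbols matched and 9 windows were used, and each window runs from 250 bases before to 50 bases after the annotated gene start, written 5′ to 3′ on the strand of the gene. Capitals mark the matches to any of the 4 motifs that were searched on both strands, which were CACGTG, the E2F core TCCCGC, the MYB core CAACNG and the CRE TGACGTCA. The MOV10L1 window is chr5:567380-567679 on the minus strand, the PLD6 window chr12:61057646-61057945 on the plus strand and the STK31 window chr18:48382309-48382608 on the minus strand.
MOV10L1: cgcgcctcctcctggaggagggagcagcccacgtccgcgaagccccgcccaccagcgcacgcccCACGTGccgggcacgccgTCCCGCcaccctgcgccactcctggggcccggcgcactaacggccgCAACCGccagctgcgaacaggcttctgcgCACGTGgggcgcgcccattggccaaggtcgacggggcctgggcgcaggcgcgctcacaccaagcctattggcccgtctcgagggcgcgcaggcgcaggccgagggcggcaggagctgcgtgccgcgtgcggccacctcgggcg
PLD6: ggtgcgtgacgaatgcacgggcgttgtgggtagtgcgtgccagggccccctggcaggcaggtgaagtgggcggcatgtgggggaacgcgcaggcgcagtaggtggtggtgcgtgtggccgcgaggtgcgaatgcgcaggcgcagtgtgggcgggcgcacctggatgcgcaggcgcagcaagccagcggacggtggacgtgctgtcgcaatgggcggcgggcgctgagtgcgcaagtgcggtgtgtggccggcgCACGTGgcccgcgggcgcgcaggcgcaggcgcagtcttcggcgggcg
STK31: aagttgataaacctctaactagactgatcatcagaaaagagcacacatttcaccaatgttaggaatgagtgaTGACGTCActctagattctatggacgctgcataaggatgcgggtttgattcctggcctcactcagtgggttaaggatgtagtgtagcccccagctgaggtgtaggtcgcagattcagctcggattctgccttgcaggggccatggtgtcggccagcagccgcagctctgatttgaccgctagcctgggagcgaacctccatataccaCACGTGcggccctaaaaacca
Counted from the gene start, whose first base is 1, the E-box begins at -186 and -93 in MOV10L1, at 4 in PLD6 and at 30 in STK31. Of all 20667 promoter windows of the same length, 7.64% hold this motif. TCCCGC stood in 1 of 9 member windows (MOV10L1) and in 29% of all windows, CAACNG in 3 of 9 (TDRD1, TDRD9 and MOV10L1) and in 29.9%, and TGACGTCA in 1 of 9 (STK31) and in 2.16%. Beginning positions were -168 for TCCCGC in MOV10L1 and -178 for TGACGTCA in STK31. A match is a description of letters and not a measured binding site. The 9 windows held a median of 15 CpG dinucleotides, as did all windows. Those of MOV10L1, PLD6 and STK31, shown above, held 42, 40 and 11.

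After selection of cells, 17482 cattle cells and 9206 pig cells were kept, and clusters were named from marker genes that include no member. Germ-like cells numbered 83, 218 and 218 in cattle 1, 2 and 3 and 644, 219 and 695 in pig 1, 2 and 3, which was 2.41% to 3.69% of the cells in cattle and 5.75% to 31.1% in pig. The libraries differed in depth, with 5805223 to 53325608 unique molecular identifiers (UMIs, 1 for each captured RNA molecule) per cattle file and 6245189 to 40099873 per pig file. Cattle 1 and pig 1 were the shallowest libraries of their species, with a median of 3514 and 2811 UMIs per germ-like cell, against 6176 to 16908 in the other cattle and 14796 to 15027 in the other pigs. Levels are given below as CPM, the UMIs of a gene per 1000000 UMIs summed over a class of cells in an animal. Because the assay counts each molecule at its 3′ end, levels were not divided by gene length. The annotation of a species decides which reads count for a gene, so levels of a gene cannot be compared as amounts between species. Cattle and pig values set side by side below are a description. Only the contrast of germ-like with other cells was tested between species. Pairs of libraries shared 9 to 61 cell barcodes, 0.403% to 1.21% of those of the smaller library.

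All 10 piRNA pathway genes were higher in germ-like cells than in the other testicular cells of the same animals, in cattle and in pig. In cattle 10 of 10 members rose (edgeR quasi-likelihood test, adjusted p under 0.05), where 23.1% of the 14200 genes tested were called higher, and in pig 10 of 10 rose, where 16.9% of 15217 genes were. The lowest germ-like CPM lay above the highest CPM of the other cells for 10 of 10 members in each species, as it did for 41% of all genes tested in cattle and 32.7% in pig. The members had a median log2 fold change of 5.46 in cattle, beside -0.17 over all genes tested, and of 3.83 in pig, beside -0.09. Calls over all genes split into 3286 higher and 3794 lower (26.7%) for cattle, and into 2574 higher and 3095 lower (20.3%) for pig. Scaling by library size alone split them into 6248 (44%) and 1830 for cattle and into 3583 (23.5%) and 2284 for pig, and all 10 members were again called higher. Without pig 2, 5 of the 10 members were called in pig, beside 5.82% of all genes. Cells had been grouped by the expression of other genes in these same cells, so the comparison describes how far the members follow those genes. The members had also been chosen with earlier results of these data known. The counts of members called are therefore a description and not an independent test.

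Summed over the 10 genes, germ-like cells reached 1095, 1137 and 1110 CPM in cattle 1, 2 and 3 and 864, 1157 and 1073 CPM in pig 1, 2 and 3. The other cells held 15.4, 9.17 and 12.4 CPM in cattle and 40.9, 47.0 and 60.8 CPM in pig. The summed level in germ-like cells was thus near 1 part in 1000 in all 6 animals, lowest in pig 1. The level in the other cells of each pig exceeded that of every cattle library. In pig 2, 474 of the 735 member UMIs of other cells came from unnamed clusters. Without unnamed clusters the other cells held 41.1, 18.5 and 59.6 CPM in pig 1, 2 and 3 and 9.07 to 15.2 CPM in cattle. The other cells stood at 0.807% to 1.41% of the germ-like level in cattle and at 4.06% to 5.66% in pig. Within these sums, MAEL had the highest mean CPM in cattle and PLD6 in pig, as the plot of levels by animal shows. This is a ranking within each species and not a comparison of amounts between them.

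**Figure D1:**
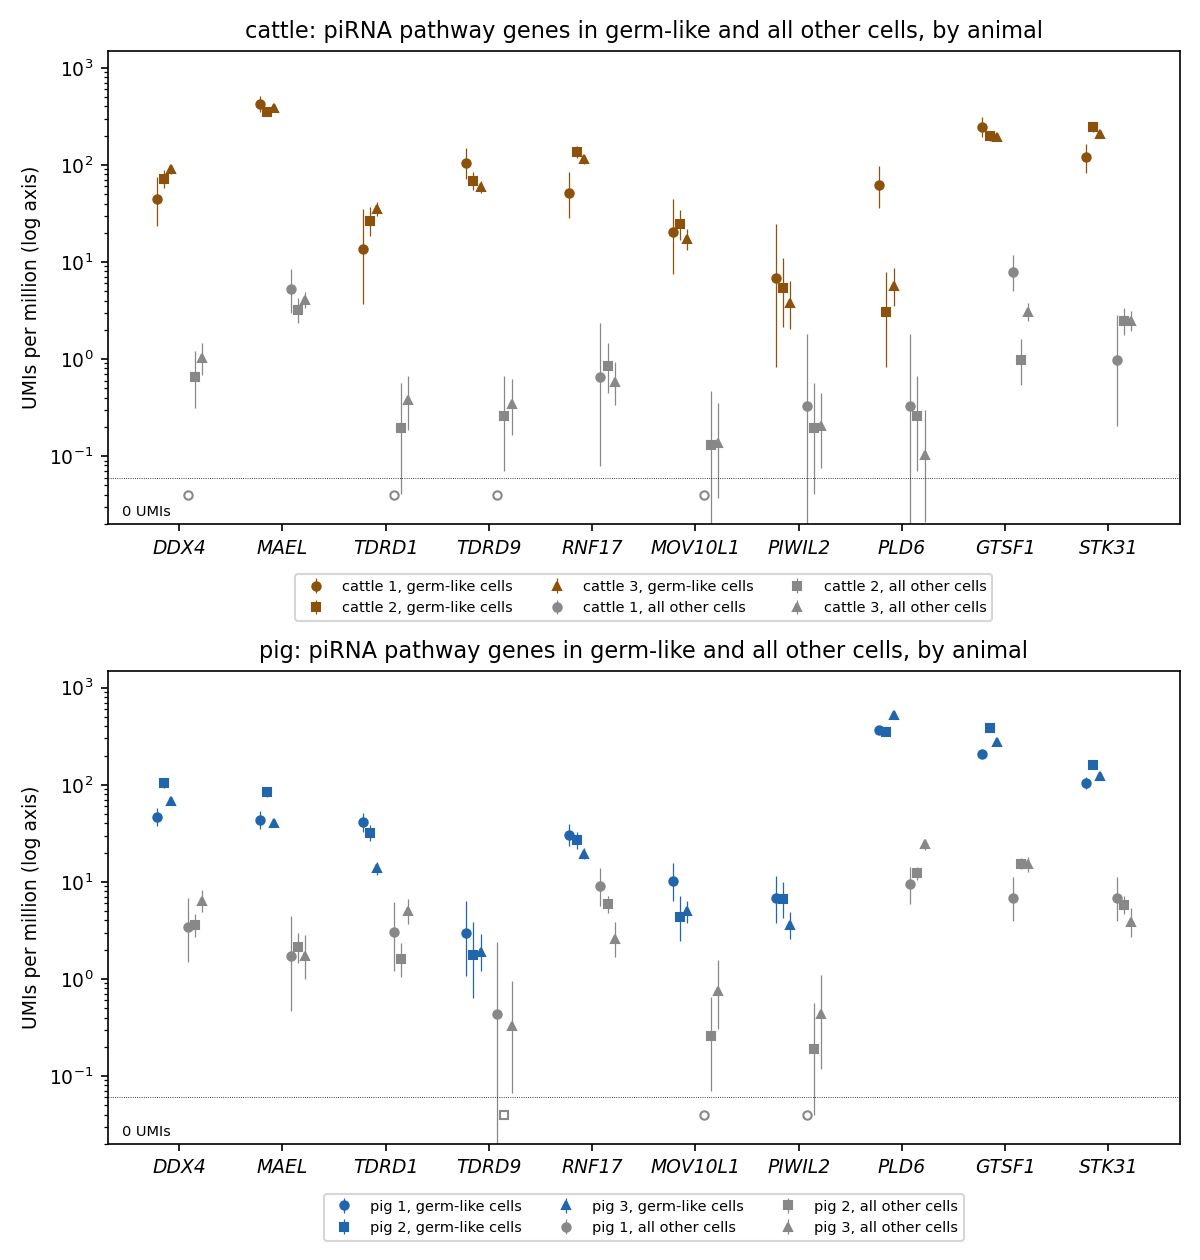
Level of each piRNA pathway gene in germ-like cells (coloured) and in all other cells (grey) of each animal, in CPM on a log axis, with cattle above and pig below. Each point is 1 animal, bars are exact 95% Poisson intervals of the summed UMIs, and open symbols under the dotted line are sums of 0 UMIs. For every gene the germ-like points lie above all grey points, with MAEL at 354 to 426 CPM in cattle and 40.5 to 85.0 CPM in pig.

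Among the proteins that bind piRNAs or their precursors, PIWIL2 (a PIWI protein, known as MILI in mice) was one of the lowest members in germ-like cells of both species. Its level was 6.82, 5.35 and 3.75 CPM in germ-like cells of cattle 1, 2 and 3, from 2, 7 and 14 UMIs, and 0.328, 0.195 and 0.205 CPM among the other cells. Pig levels were 6.87, 6.72 and 3.56 CPM in germ-like cells and 0, 0.192 and 0.434 CPM in the other cells of pig 1, 2 and 3. The germ-like levels of the species overlapped, and in each species they lay above the other cells. PIWIL2 rose in both, by a log2 fold change of 3.29 for cattle (SE 0.61, edgeR adjusted p = 0.00180) and of 4.03 for pig (SE 0.76, adjusted p = 0.00463). The call in cattle was lost without cattle 2 (adjusted p = 0.0540) and in pig without pig 2 (adjusted p = 0.0628).

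MOV10L1, an RNA helicase that binds piRNA precursors, stood at 20.5, 24.4 and 17.1 CPM in germ-like cells of cattle 1, 2 and 3 and at 10.3, 4.38 and 4.95 CPM in those of pig 1, 2 and 3. In the other cells it was at 0, 0.130 and 0.137 CPM in cattle and at 0, 0.256 and 0.759 CPM in pig. Every cattle value in germ-like cells lay above every pig value. Its log2 fold change over other cells was 6.14 for cattle (SE 0.56, edgeR adjusted p = 3.52e-05) and 3.61 for pig (SE 0.82, adjusted p = 0.00952), where the call was lost without pig 2 (adjusted p = 0.0686).

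PLD6, the mitochondrial enzyme also called MitoPLD that takes part in cutting piRNA precursors, had the highest level of the 10 members in pig germ-like cells. It reached 368, 351 and 523 CPM in pig 1, 2 and 3, from 750, 1201 and 6013 UMIs, against 9.48, 12.2 and 24.5 CPM in the other cells. In cattle germ-like cells it was at 61.4 CPM in cattle 1 but at 3.06 and 5.63 CPM in cattle 2 and 3, from 18, 4 and 21 UMIs, and the other cells held 0.328, 0.260 and 0.103 CPM. The exact 95% Poisson interval of cattle 1 (36.4 to 97.0 CPM) did not overlap those of cattle 2 (0.833 to 7.82 CPM) and cattle 3 (3.48 to 8.60 CPM). Every pig thus stood above every cattle library, and cattle 1 stood apart from the other cattle. All 18 germ-like PLD6 UMIs of cattle 1 came from a sub-cluster that held 74 of its 83 germ-like cells and no cells of other animals. PLD6 rose by a log2 fold change of 4.39 (SE 0.44, edgeR adjusted p = 5.48e-04) in pig and of 5.28 (SE 1.24, adjusted p = 0.00609) in cattle, where the change was 3.74 without cattle 1. Such intervals cover counting error only, here and below.

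GTSF1, a small zinc finger protein that binds PIWI proteins, was among the highest members in both species. Its level was 246, 200.1 and 195 CPM in germ-like cells of cattle 1, 2 and 3, where the other cells held 7.87, 0.976 and 3.08 CPM. The germ-like cells of pig 1, 2 and 3 had 209, 384 and 275 CPM, where the other cells held 6.89, 15.3 and 15.2 CPM. The ranges of the species overlapped in germ-like cells, and no other-cell value came near them. GTSF1 rose by a log2 fold change of 4.85 for cattle (SE 0.61, edgeR adjusted p = 1.94e-04) and of 4.14 for pig (SE 0.38, adjusted p = 4.04e-04).

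Among the nuage proteins, MAEL (Maelstrom, needed in mice to keep transposons silent in the male germline) had the highest level of the 10 members in cattle germ-like cells. It stood at 426, 354 and 381 CPM in cattle 1, 2 and 3, against 5.25, 3.19 and 4.07 CPM in the other cells, and at 43.7, 85.0 and 40.5 CPM in germ-like cells of pig 1, 2 and 3, against 1.72, 2.11 and 1.73 CPM. The lowest cattle value was more than 4 times the highest pig value in germ-like cells. MAEL rose in both species, by a log2 fold change of 5.45 for cattle (SE 0.29, edgeR adjusted p = 1.09e-05) and of 4.52 for pig (SE 0.40, adjusted p = 3.93e-04).

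DDX4, the DEAD-box helicase VASA that marks germ cells across animals, was at 44.3, 71.8 and 89.8 CPM in germ-like cells of cattle 1, 2 and 3 and at 46.6, 103 and 68.7 CPM in those of pig 1, 2 and 3. In the other cells it was at 0, 0.650 and 1.03 CPM in cattle and at 3.45, 3.58 and 6.39 CPM in pig. The 0 of cattle 1 allows a level of up to 0.984 CPM (3 UMIs). The germ-like ranges of the species overlapped, whereas each pig's other cells exceeded those of every cattle library. DDX4 rose by a log2 fold change of 5.46 for cattle (SE 0.54, edgeR adjusted p = 5.50e-05) and 3.63 for pig (SE 0.41, adjusted p = 6.83e-04).

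The 4 members with Tudor domains covered a wide range of levels. STK31, which joins a Tudor domain to a kinase domain, was the highest of them, at 119, 246 and 208 CPM in germ-like cells of cattle 1, 2 and 3 and at 105, 162 and 122 CPM in those of pig 1, 2 and 3. The other cells held 0.984 to 2.47 CPM in cattle and 3.90 to 6.89 CPM in pig, so that the classes were far apart in both species. STK31 rose by a log2 fold change of 5.35 for cattle (SE 0.42, edgeR adjusted p = 2.16e-05) and of 4.22 for pig (SE 0.35, adjusted p = 3.90e-04).

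TDRD9, which carries an RNA helicase domain and acts in nuage, had larger CPM values in cattle than in pig, which is not a comparison of amounts. It was at 106, 68.0 and 59.2 CPM in germ-like cells of cattle 1, 2 and 3, from 31, 89 and 221 UMIs. In pig 1, 2 and 3 it was at 2.95, 1.75 and 1.91 CPM, from 6, 6 and 22 UMIs. The other cells held 0, 0.260 and 0.342 CPM in cattle and 0.431, 0 and 0.325 CPM in pig. Every cattle value in germ-like cells was therefore at least 20 times every pig value, and the pig sums rested on few UMIs. The log2 fold change over other cells was 6.88 (SE 0.46, edgeR adjusted p = 1.57e-05) in cattle. In pig it was 3.14 (SE 1.07, adjusted p = 0.0449), and the call was lost without pig 1 (0.106), without pig 2 (0.125), without pig 3 (0.0818) and with unnamed clusters left out of the other cells (0.0518). In the RefSeq annotation of Sscrofa11.1 TDRD9 lies on an unplaced scaffold.

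TDRD1, a scaffold of nuage that binds PIWI proteins, was at 13.6, 26.7 and 35.4 CPM in germ-like cells of cattle 1, 2 and 3 and at 41.2, 32.1 and 13.7 CPM in those of pig 1, 2 and 3. The other cells held 0, 0.195 and 0.376 CPM in cattle and 3.02, 1.60 and 4.99 CPM in pig. The species overlapped in germ-like cells, and pig 3 had the lowest germ-like and the highest other-cell level among the pigs. TDRD1 rose by a log2 fold change of 5.51 for cattle (SE 0.62, edgeR adjusted p = 1.08e-04) and of 2.79 for pig (SE 0.57, adjusted p = 0.00647), where the call was lost without pig 1 (0.0506) and without pig 2 (0.0632).

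RNF17, which combines a RING finger with Tudor domains, was at 51.2, 137 and 114 CPM in germ-like cells of cattle 1, 2 and 3, against 0.656, 0.846 and 0.582 CPM among the other cells. Pig 1, 2 and 3 had it at 30.4, 26.9 and 19.5 CPM in germ-like cells, against 9.05, 5.88 and 2.60 CPM in the other cells. The classes were further apart in every cattle library than in any pig library. The other cells reached 1.28%, 0.618% and 0.511% of the germ-like level in cattle 1, 2 and 3 and 29.7%, 21.9% and 13.4% in pig 1, 2 and 3. RNF17 rose by a log2 fold change of 6.10 for cattle (SE 0.47, edgeR adjusted p = 2.07e-05) and of 1.82 for pig (SE 0.49, adjusted p = 0.0187), where the call was lost without pig 2 (0.106).

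RNF17 UMIs in the other cells of pig came from unnamed clusters and from several named cell types, most of the named types with few UMIs. Unnamed clusters held RNF17 at 1.85 to 14.4 CPM over the 3 pigs. Without them the other cells held 2.76 to 7.48 CPM. In Sertoli-like cells (the supporting cells of the tubule) RNF17 was at 24.4, 4.61 and 3.63 CPM in pig 1, 2 and 3, from 3, 46 and 4 UMIs. Leydig-like cells (the steroid-producing cells) held 5, 1 and 2 UMIs and macrophage-like cells 0, 1 and 1. Myoid and stromal-like cells of pig 2 and pig 3 had 9.64 and 5.75 CPM, from 13 and 6 UMIs. In cattle Sertoli-like cells RNF17 was at 0, 0.809 and 0.852 CPM in cattle 1, 2 and 3, from 0, 5 and 8 UMIs. The 95% Poisson interval of Sertoli-like cells of pig 2 (3.38 to 6.15 CPM) lay above those of cattle 2 (0.263 to 1.89 CPM) and cattle 3 (0.368 to 1.68 CPM). That of pig 3, from 4 UMIs, overlapped both. The 0 of cattle 1 allows up to 4.54 CPM, counted as 3 UMIs and not as the end of such an interval.

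Whether the contrast of germ-like with other cells differed between cattle and pig was tested by an interaction term in a fit of 12 sums, those of both species together. A positive value means a larger fold change in cattle. Of 12769 genes with a symbol in both gene tables, 6.45% were called higher and 8.92% lower in cattle than in pig. Of the members only RNF17 passed, 1 of 10, with a log2 difference of 4.01 (SE 0.70, edgeR adjusted p = 0.00193), and its adjusted p was at most 0.0278 under every alternative tried. Its fold change was positive in both species, and the germ-like and other values of the species differed in opposite directions, higher in cattle germ-like cells and lower in cattle other cells.

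TDRD9 had a log2 difference of 3.45 (SE 1.26, edgeR adjusted p = 0.0775), TDRD1 of 2.49 (SE 0.90, 0.0742), MOV10L1 of 2.34 (SE 1.04, 0.149) and DDX4 of 1.64 (SE 0.71, 0.134). These 4 and RNF17 had an unadjusted p under 0.05 and the other members did not. PIWIL2 was the member with a negative value, -0.92 (SE 0.97, adjusted p = 0.592), and the remaining 4 lay between 0.45 and 0.92. The median over the members was 1.28, beside -0.07 over all genes tested. A fit with a replicate block for the animal called 4 of 10 members, beside 11.5% of all genes called higher: RNF17 (4.10, adjusted p = 1.34e-06), TDRD1 (2.75, 0.00881), DDX4 (1.71, 0.0110) and TDRD9 (3.55, 0.0333). Scaling by library size alone called 7 members higher, beside 17.5% of all genes, and shifted the median over all genes to 0.72. It changed the split of calls from 823 higher and 1139 lower to 2230 higher and 532 lower.

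**Figure D2:**
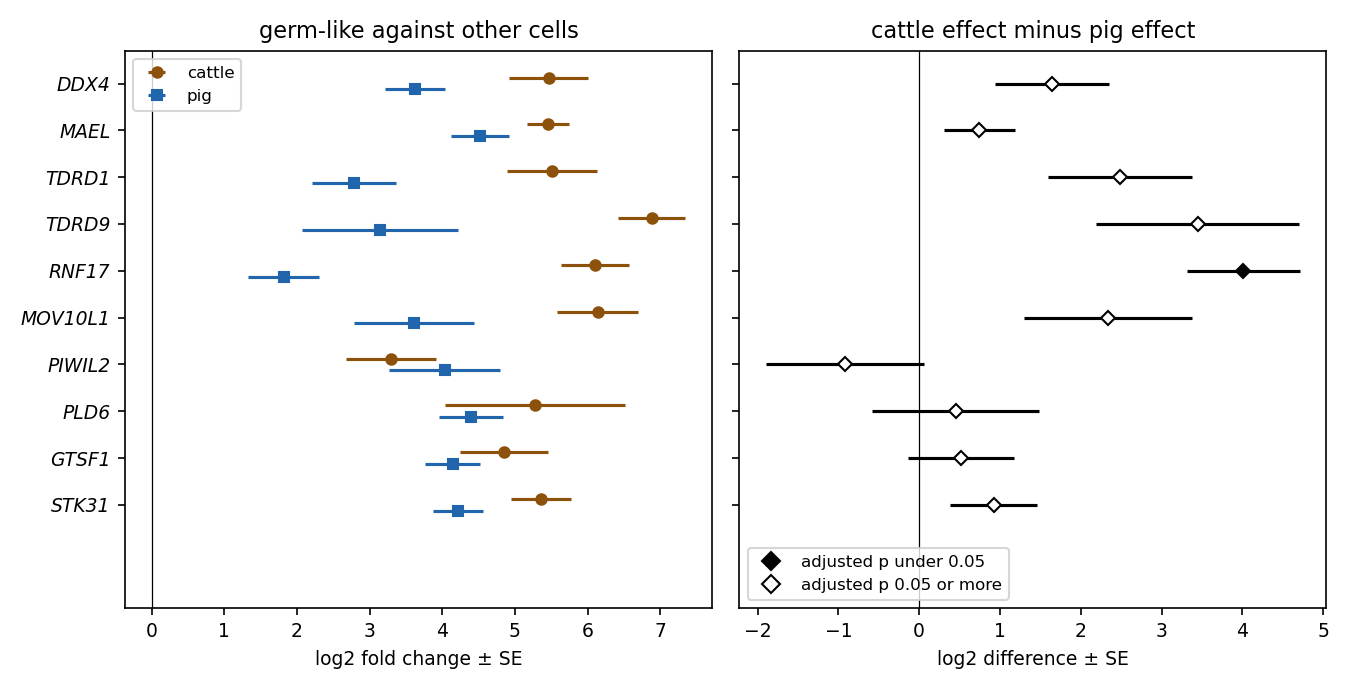
Left, log2 fold change of germ-like over other cells for each piRNA pathway gene in cattle (circles) and pig (squares), with bars of ± 1 SE from the edgeR fit over 3 animals per species. Right, the cattle minus pig difference on the log2 scale with ± 1 SE, filled where the adjusted p is under 0.05. All fold changes lie above 0, and RNF17 at 4.01 is the filled point.

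The cells of each library that contribute these UMIs were counted after each cell was thinned to 1000 UMIs, with shallower cells left out, so that cells of different depth could be compared. In cattle the thinned share of germ-like cells with a UMI was 31.8% ± 6.47 for MAEL, 19.8% ± 2.71 for GTSF1 and 17.7% ± 3.32 for STK31 (SD, n = 3), against 0.399%, 0.338% and 0.186% of the other cells. In pig it was 35.5% ± 7.73 for PLD6, 24.5% ± 9.02 for GTSF1 and 13.4% ± 2.62 for STK31, against 1.53%, 1.33% and 0.590% of the other cells. These leading genes are those with the highest CPM, and even they were seen in a minority of germ-like cells at this depth. A two-sided exact permutation test over animals gave p = 0.1, the smallest it can give, for 8 members in cattle and 9 in pig. With 3 animals, that value means only that the shares of the classes did not overlap. How many of all genes reach it was not computed, so these counts are a description. The exact permutation p was 0.4 for PIWIL2 and PLD6 in cattle, and 1.0 for TDRD9 in pig. Without thinning, MAEL was seen in 82.9% of cattle germ-like cells and PLD6 in 80.0% of pig germ-like cells. Thinning left out 7 germ-like cells of cattle 1 and 54 of pig 1, and 2341 and 216 other cells of cattle 1 and 2 and 1924 of pig 1.

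UMIs of several members in the same cell were rare outside the germ-like cells. After thinning, UMIs of at least 2 members were found in 23.7%, 29.4% and 29.8% of germ-like cells of cattle 1, 2 and 3, and in 18.5%, 31.5% and 23.5% of those of pig 1, 2 and 3. Among the other cells such cells made up 0%, 0.0260% and 0.0176% for cattle 1, 2 and 3 and 0.337%, 0.613% and 0.584% for pig 1, 2 and 3. No library's other cells came near its germ-like cells. Without unnamed clusters the share in other cells was 0%, 0.0314% and 0.559% in pig 1, 2 and 3. No member was detected in 26.3% to 33.9% of germ-like cells in cattle and in 28.3% to 44.7% in pig, with pig 1, the shallowest pig library, highest. Without thinning the deepest cattle library, cattle 3, had at least 2 members in 99.1% of its germ-like cells.

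**Figure D3:**
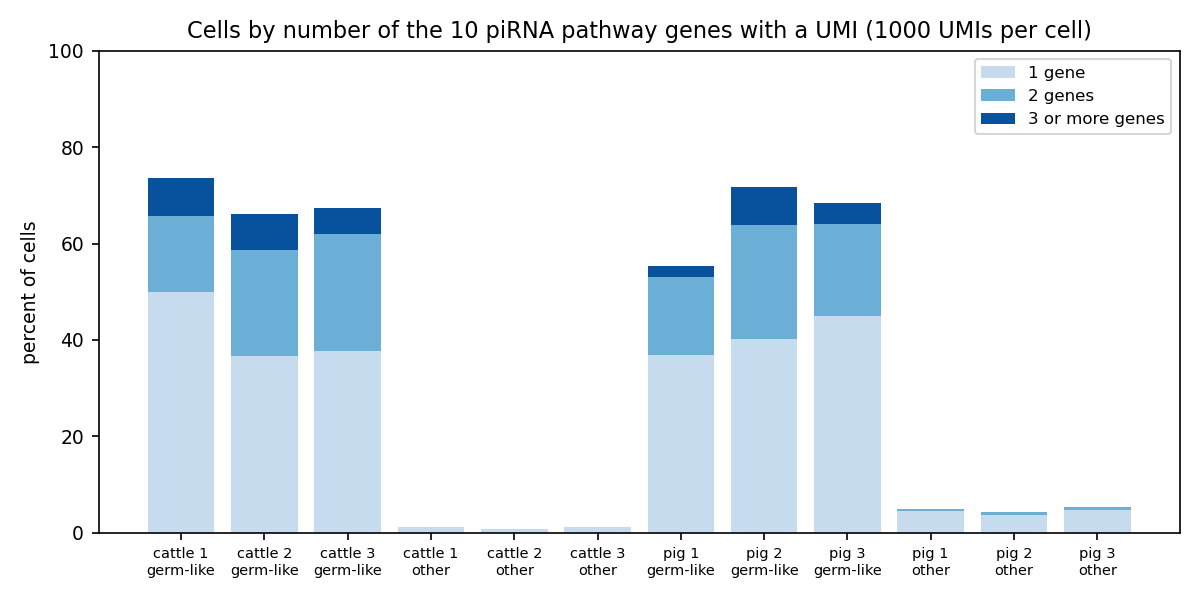
Number of the 10 piRNA pathway genes with a UMI per cell after thinning to 1000 UMIs, as a share of the germ-like and of all other cells of each animal. At least 2 genes were detected in 18.5% to 31.5% of germ-like cells and in at most 0.613% of other cells.

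RNA outside cells was measured in the cattle files, which list empty droplets, and taken as barcodes of at most 50 UMIs. The 10 members together stood at 37.4, 105 and 74.6 CPM in these barcodes of cattle 1, 2 and 3. These values exceeded the 15.4, 9.17 and 12.4 CPM of the other cells in the same libraries, and the germ-like sums were 29.2, 10.8 and 14.9 times higher than the empty droplets. MAEL, the highest member in cattle germ-like cells, was also highest in empty droplets, at 11.8, 42.0 and 33.7 CPM. The summed member level in other cattle cells thus lay below the level of free RNA. The pig files list no barcode under 500 UMIs, so the same measurement could not be made there.

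Within the germ-like cells of pig, DDX4 was higher in early meiotic-like cells, which carried meiotic markers such as TEX101 and DMC1, than in the remaining germ-like cells. The remaining cells included an unnamed sub-cluster of 125 cells, 119 of them from pig 3, that held UMIs of the meiotic markers STRA8 and SYCP1, as described below. DDX4 was at 136 against 40.8 CPM in pig 1 (56 early meiotic-like cells) and at 205 against 59.0 CPM in pig 3 (86 cells). In pig 2, which had only 7 such cells and was left out of the test, it was at 595 against 95.8 CPM. The early meiotic-like level was the higher of the pair in all 3 pigs, from 17 UMIs in pig 1. In pig 3 the rise lay in 33 of these cells, at 370 CPM. The other 53 stood at 66.5 CPM, against 68.8 CPM in the germ-like cells outside their sub-cluster. High DDX4 was not particular to early meiotic-like cells. Another unnamed sub-cluster among the remaining germ-like cells, described below, held DDX4 at 120, 200.1 and 190 CPM in pig 1, 2 and 3. DDX4 rose by a log2 fold change of 1.52 (SE 0.36, edgeR adjusted p = 0.00376 over 2 pigs), and its adjusted p was at most 0.0191 under the other settings. It was the only member called, 1 of 10, where 4.57% of 13313 genes were called higher and 7.45% lower, 609 and 992 genes. Scaling by library size alone gave 897 higher and 628 lower (6.74% and 4.72%), and DESeq2 gave 383 and 351 (2.88% and 2.64%).

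STK31 had a log2 fold change of 0.59 (SE 0.32, edgeR adjusted p = 0.260) in early meiotic-like cells, and of 0.56 (adjusted p = 0.0265) with a replicate block for the animal, which called 2 of 10 members higher beside 9.31% of all genes. It was at 191 against 98.9 CPM in pig 1 and at 203 against 117 CPM in pig 3. PLD6, the highest member, was at 383 against 367 CPM and at 518 against 523 CPM, with a log2 fold change of -0.26 (SE 0.28, adjusted p = 0.601). GTSF1 was at 311 against 202 CPM and at 417 against 265 CPM, with 0.37 (SE 0.29, adjusted p = 0.444). The median over the members was 0.22, beside -0.34 over all genes tested. In cattle no sub-cluster of germ-like cells carried a leading early meiotic marker, so no such comparison could be made there. The rule sets each sub-cluster against the median one, so a marker found in most of them does not lead. Over all cattle germ-like cells SYCP1 was at 106, 241 and 248 CPM in cattle 1, 2 and 3. SMC1B was at 167, 231 and 212 CPM, whereas MEIOB was at 0, 3.82 and 3.48 CPM.

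The early meiotic-like cells fell into a pair of sub-clusters that differed in DDX4 and TDRD1, described here without a test. The first held 79 cells, with STRA8 (the factor that brings germ cells into meiosis) at 73.1 CPM and TEX101 at 735 CPM. There DDX4 was at 73.1 CPM and TDRD1 had 0 UMIs, which allows up to 6.27 CPM (3 UMIs). In the second, with 70 cells, no STRA8 UMI and TEX101 at 2031 CPM, DDX4 was at 363 CPM and TDRD1 at 48.8 CPM. DDX4 in the second sub-cluster was at 370 CPM in pig 3 and at 139 CPM in pig 1, and in the first at 66.5 and 130 CPM, so that the step in DDX4 rested on pig 3. TDRD1 was at 42.7 and 50.4 CPM in the second sub-cluster of pig 3 and pig 1. It had 0 UMIs in the first in both, which allows up to 7.13 and 65.2 CPM (3 UMIs each).

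TDRD1 was also at or near 0 in 3 other pig sub-clusters. It had 0 UMIs in a sub-cluster of 125 cells, 119 of them from pig 3, with STRA8 at 73.3 CPM and SYCP1 at 103 CPM, where PLD6 was at 538 CPM and STK31 at 170 CPM. In a sub-cluster of 240 cells, 233 of them from pig 3, TDRD1 was at 2.01 CPM, and in a sub-cluster of 92 cells, all from pig 1, at 4.05 CPM from 1 UMI. In the remaining 8 sub-clusters outside the early meiotic-like pair it ranged from 16.9 to 52.3 CPM. These steps lay within a library. In pig 3 TDRD1 was at 2.06 and 0 CPM in the sub-clusters of 240 and 125 cells but at 23.0 and 24.3 CPM in those of 124 and 56 cells, and in pig 1 it was at 4.05 CPM in the sub-cluster of 92 cells but at 23.8 to 55.0 CPM in those of 95, 91 and 199 cells. PLD6 was high both with little and with more TDRD1, at 677 CPM in the sub-cluster of 240 cells and at 662 CPM in the second early meiotic-like one.

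A sub-cluster of 224 pig germ-like cells, with 100, 73 and 51 cells of pig 1, 2 and 3, held cells of all animals and was led by AGAP3, SERPINE2 and PAGE4. It had GFRA1 (a receptor of undifferentiated spermatogonia) at 24.3 CPM, UTF1 at 78.0 CPM and ID4 at 19.6 CPM, and PIWIL4 at 129 CPM. GFRA1, UTF1 and ID4 are only some of the spermatogonial markers used. ZBTB16, another of them, was among the leading genes of a sub-cluster of 124 cells. The sub-cluster of 224 cells stayed unnamed under the naming rule, so no stage is given to it. DDX4 was at 120, 200.1 and 190 CPM there in pig 1, 2 and 3, against 38.7, 68.9 and 61.7 CPM in the rest of the germ-like cells. MAEL was at 150.2, 182 and 150.3 CPM against 32.1, 50.3 and 34.1 CPM, and STK31 at 280.3, 301 and 304 CPM against 85.5, 112 and 112 CPM. These 3 genes were higher in the sub-cluster in 3 of 3 pigs, by ratios of 2.70 to 4.68. PLD6 was lower in 3 of 3 pigs, at 220.2, 223 and 242 CPM against 384, 396 and 539 CPM, or 0.573, 0.564 and 0.449 of the level in the rest. TDRD1 was higher in 3 of 3 pigs too, at 85.1, 36.7 and 28.5 CPM against 36.5, 30.5 and 12.9 CPM. PIWIL2, from 7, 10 and 2 UMIs, was higher in pig 1 (35.0 against 3.81 CPM) and by a ratio of 2.16 in pig 2, and was at 3.16 against 3.59 CPM in pig 3. GTSF1 (ratios of 1.01 to 1.31) and RNF17 (highest ratio 1.69) differed less than DDX4, MAEL and STK31. These values are a description, since the sub-cluster was drawn from the expression of other genes in the same cells. How many of all genes were higher there in 3 of 3 pigs was not computed.

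**Figure D4:**
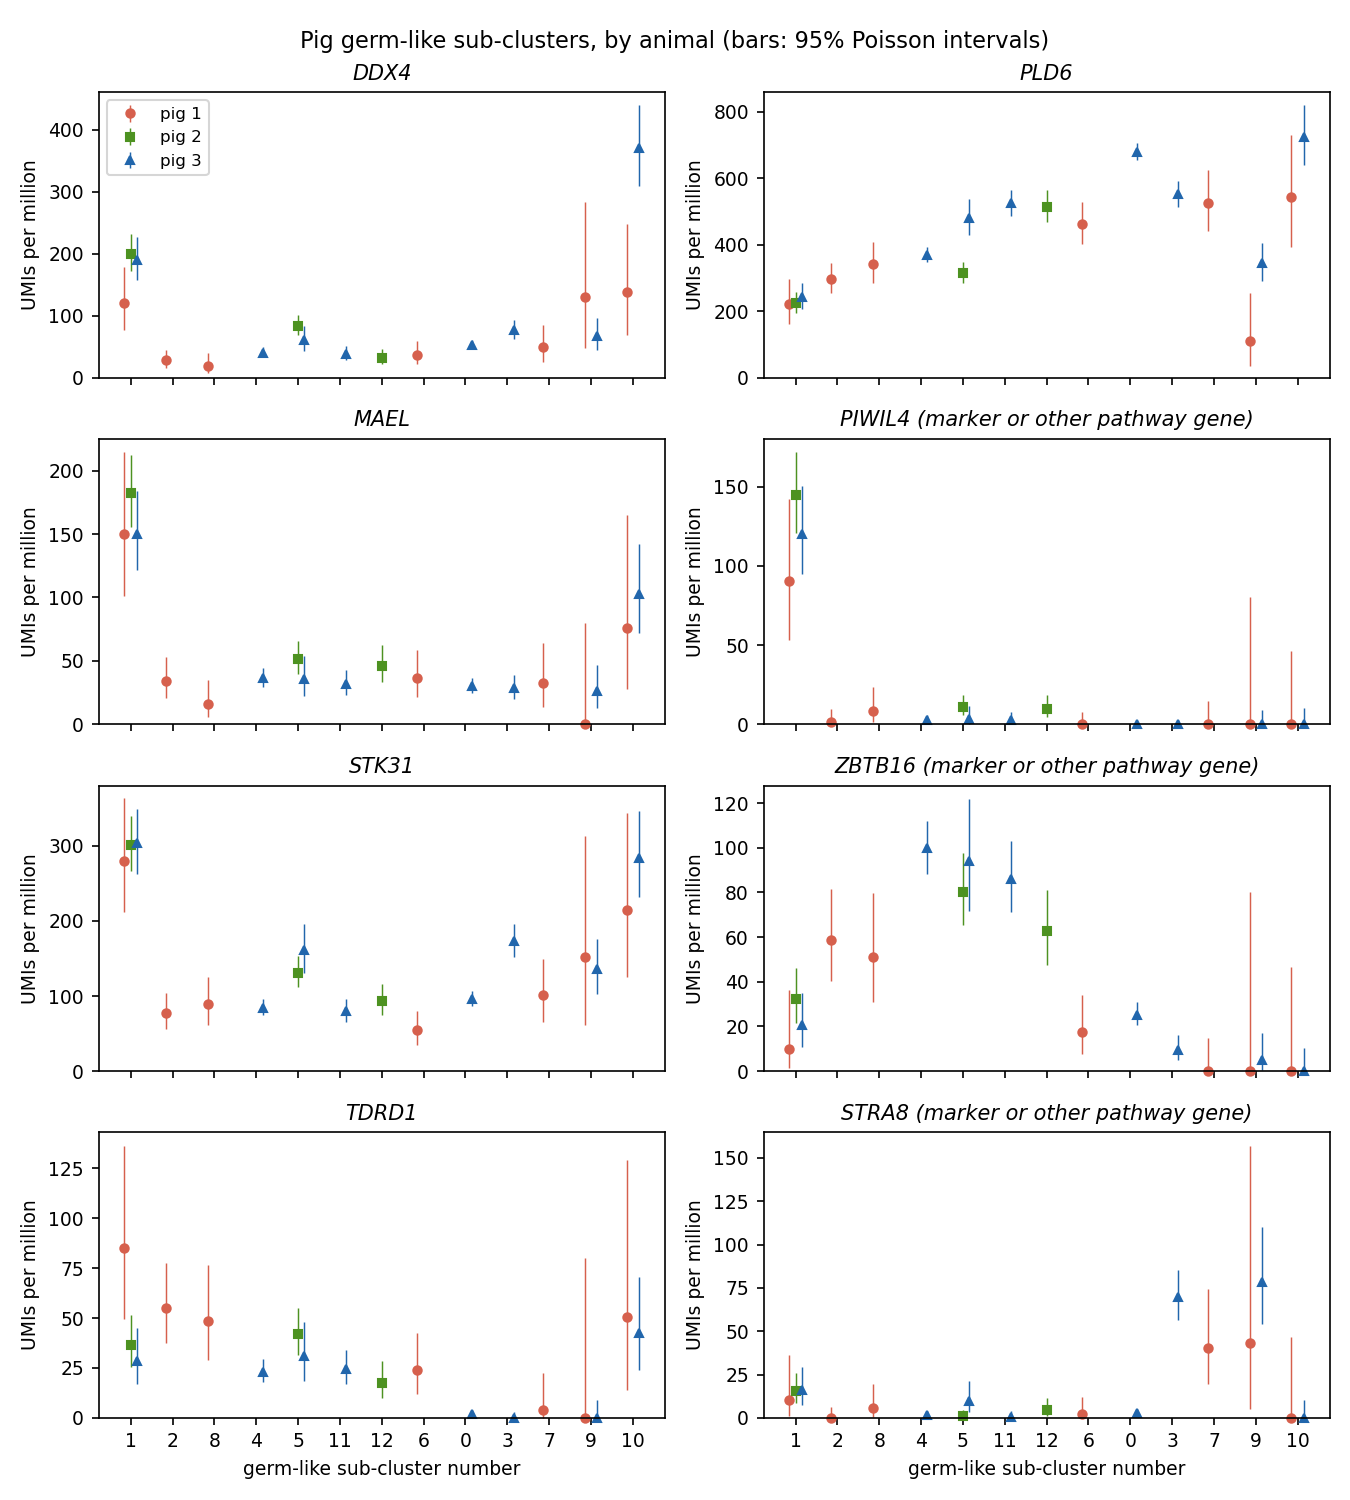
Levels in the sub-clusters of pig germ-like cells, by animal, in CPM, with exact 95% Poisson intervals and for animals with at least 10 cells, where sub-clusters 9 and 10 are the first and second early meiotic-like ones and sub-cluster 1 is the one of 224 cells. DDX4 stands highest in the sub-cluster of 70 early meiotic-like cells at 363 CPM over all pigs, TDRD1 is at 0 in the first early meiotic-like sub-cluster, and PLD6 spans 109 to 725 CPM by animal.

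In cattle the 9 germ-like sub-clusters were largely made of single libraries, and several members varied among them. Levels are given for a sub-cluster within an animal, where that animal had at least 10 of its cells. GTSF1 ranged from 58.2 CPM in 18 cells of cattle 2 (8 UMIs) to 278 CPM in 40 cells of the same animal (79 UMIs). RNF17 and STK31 were highest in 69 cells of cattle 2, at 219 and 387 CPM, and RNF17 was lowest in the sub-cluster of 74 cattle 1 cells, at 49.6 CPM. DDX4 ranged from 42.0 to 150 CPM, MAEL from 242 to 503 CPM and TDRD9 from 14.0 to 88.6 CPM, the lowest TDRD9 value resting on 3 UMIs. MAEL was thus high throughout.

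Outside the germ-like cells of pig, members were found in an unnamed cluster led by UCHL1, a gene of spermatogonia, and CCND2. It held 319 cells, 96.2% of them from pig 2, and had DDX4 at 33.8 CPM, MAEL at 21.4 CPM, PLD6 at 138 CPM, GTSF1 at 125 CPM and STK31 at 63.2 CPM. These levels lay below the germ-like levels of pig 2 for all 5 genes and above those of the other cells of all pigs. With this cluster left out of the other cells, all 10 members were again called higher in pig, beside 16.9% of 15201 genes. Members had a median log2 fold change of 4.23, beside -0.095 across every gene tested. This setting was chosen after seeing the data. TDRD1 was also found in an unnamed cluster of 154 cells led by VPREB1, RGS1 and IRF8, genes of blood cells, 92.2% of them from pig 3. There TDRD1 was at 51.5 CPM (33 UMIs, 95% Poisson interval 35.4 to 72.3), with a UMI in 25 of the 142 cells from pig 3 (17.6%) and in 2 of the 11 from pig 2. In its cells from pig 3 PLD6 was at 26.6 CPM (16 UMIs), beside 24.5 CPM in all other cells of that pig, DDX4, MAEL and STK31 had 2 UMIs each and GTSF1 had 0. A like cluster of pig 1 had 3 TDRD1 UMIs in 180 cells.

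Genes outside the 10 that belong to the pathway or are linked to it were mostly higher in germ-like cells too. They form a list of 27, of which 25 were in the cattle and 24 in the pig gene table. The list was chosen with earlier results of these data known. Of 22 tested in each species, 18 rose and 0 fell in germ-like cells, beside the 23.1% and 16.9% of all genes called higher, with a median log2 fold change of 3.81 for cattle and 3.45 for pig. YTHDC2 had a log2 fold change of -0.32 for cattle and -0.57 for pig, neither past the threshold. Both species had tests of 20 of these genes, and 16 rose in both. The share of all genes called higher in both species was not computed, so this count is a description. Among the 16 were the exonuclease gene PNLDC1 (3.61 and 4.39) and the methyltransferase gene HENMT1 (2.15 and 2.56), which finish the 3′ end of piRNAs. Also among them were the transposon silencing gene MORC1 (5.89 and 5.30) and the Tudor domain genes TDRD5 (5.58 and 4.28), TDRD6 (4.30 and 4.98) and TDRKH (2.25 and 3.07). In the interaction 1 of 21 differed, DDX25, an RNA helicase gene, with a log2 difference of 1.67 (SE 0.50, edgeR adjusted p = 0.0347), beside 6.45% of all genes called higher and 8.92% lower, and the median was -0.30. This call was lost without cattle 2, without cattle 3 and without any of the pigs in turn. It was also lost with unnamed clusters left out of the other cells.

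Of the other PIWI genes, PIWIL4 (known as MIWI2 in mice, where it acts in the nucleus) was at 61.4, 97.0 and 93.5 CPM in germ-like cells of cattle 1, 2 and 3 and at 10.8, 45.9 and 7.82 CPM in those of pig 1, 2 and 3. Every cattle value lay above every pig value, and pig 2 stood above the other pigs. PIWIL4 rose in cattle (log2 fold change 6.32, edgeR adjusted p = 1.61e-05) and in pig (4.36, adjusted p = 0.00801). PIWIL1, known in mice from meiosis onward, was near its detection limit at 6.82, 0.764 and 1.34 CPM in cattle, too few UMIs to be tested, and at 1.96, 2.04 and 2.17 CPM in pig (log2 fold change 2.79, adjusted p = 0.0636).

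Between early meiotic-like and other germ-like cells of pig, 7 genes of the list of 27 rose and 2 fell among 22 tested, beside 4.57% and 7.45% of all genes. DESeq2 called 4 higher and 0 lower, and library size alone 8 and 1. Those that rose were MEIOC (log2 fold change 3.17), TDRKH (2.54), YTHDC2 (1.84), FKBP6 (1.74), MYBL1 (1.57), TEX15 (1.48) and HSP90AA1 (0.71). MEIOC and YTHDC2, though on the list, are partners in the entry into meiosis, and these cells were named from meiotic markers. The count is therefore not one of piRNA genes alone. MYBL1 is the transcription factor that drives many piRNA precursors in meiosis. PIWIL4 (edgeR adjusted p = 0.0205) and SPOCD1 (0.0433) fell. PIWIL4 had 0 UMIs in the early meiotic-like cells of pig 1 and pig 3, so no fold is given. In pig 1 these cells held 125338 UMIs over all genes, where 1 UMI is 7.98 CPM. All germ-like cells of pig 1 had PIWIL4 at only 10.8 CPM. The 0 of pig 1 thus cannot show a fall, and the fall of PIWIL4 rests on pig 3.

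The genes whose levels followed the summed members most closely were found over 24 sums of cell type and animal in cattle and 22 in pig, as a Pearson correlation of log2(CPM + 10), given as a description because sums of the same animal share a library and its depth. Among the 5 closest in cattle were AGPAT1 (r = 0.975), CT55 (0.965) and RPE65 (0.964), and in pig PAGE2B (0.979), COX8C (0.974) and CCDC42 (0.967), while the others have no symbol in the gene tables. Of the members themselves, each set against the sum of the other 9, PLD6 (0.377) and PIWIL2 (0.686) followed least in cattle and RNF17 (0.629) and STK31 (0.661) least in pig. The other 8 members lay between 0.877 and 0.954 in cattle and between 0.704 and 0.895 in pig. Some of the sums were small, which limits these values. PLD6 was at 57.3 CPM in 25 endothelial-like cells of cattle 1, which held 17440 UMIs over all genes. STK31 was at 127 CPM in 21 lymphocyte-like cells of pig 1, which held 23709 UMIs.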

How the data were processed

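Single-cell RNA-sequencing libraries of 3 cattle and 3 pigs (Chromium, v2 chemistry) were used, 1 library per animal, and groups came from the species in the labels. In each species 2 titles share a testis number beside different animal tags, and the study's methods give different animals. The authors aligned reads to ARS-UCD1.2 or Sscrofa11.1 with Cell Ranger 2.1.0, per the submitters' processing notes, while the pig file headers give software version 3.0.2, and deposited raw UMI counts per gene and barcode. No barcode in the pig files is under 500 UMIs.

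Cells were called with the rule of Cell Ranger 2 (3000 expected cells), needed at least 200 genes, and the highest Scrublet scores (0.8% per 1000 cells) were left out as doublets. Cells were clustered per species (scanpy 1.11.5, 2000 variable genes without members or other pathway genes, 30 principal components, 15 neighbours, Leiden resolution 1). Clusters took the name of the cell type whose markers had the largest mean log2 fold, if at least 3 of them were 2-fold above the median cluster and seen in 5% of the cells. The conditions that leave a cluster unnamed when genes of another type lead it were chosen once clusters were known. The members and lists were chosen with earlier results of these data known.

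For each animal, UMI counts were added up within germ-like and within all other cells. Genes with at least 10 counts were tested with edgeR 4.0.16 (R 4.3.3), by the quasi-likelihood test on TMM-normalized sums, and p-values were adjusted by Benjamini-Hochberg at 0.05. Standard errors were derived from the F statistic. The p-values rest on the spread between sums, which edgeR pools in part over all genes, and the main fit holds no term for the animal. In the stage test, with 2 pigs, they rest mostly on that pooled spread and not on a spread measured between animals. Stage sums needed at least 10 cells and cell type sums at least 20. Both sums of an animal share a library and are thus paired, and their deviations from the class means correlated at 0.435 to 0.559 over genes in cattle and 0.315 to 0.499 in pig. DESeq2 1.42.0, other scalings, filters, cell selections, a replicate block and leaving out each animal were alternatives. Named genes were all 10 members, the other pathway genes called in both species with PIWIL1 and PIWIL4, and the 5 genes most like the members. Other pathway genes called in the stage comparison were named after their values were seen. The tests were also run on simulated counts, drawn without pairing of an animal's sums and with changes only in genes of higher counts. That run does not cover paired sums or members with few UMIs. The annotation behind the cattle gene table is not given in the sources used here, cattle gene positions were not analysed here, and 1 member promoter window is not reported here.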

Additional observations from a re-analysis of the deposited data

Results flagged for a closer look

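The difference between cattle and pig in germ-like against other cells passed the test of the difference itself for RNF17 (log2 4.01, edgeR adjusted p = 0.00193). The cattle effect exceeded the pig effect also for DDX25 of the other pathway genes (log2 1.67, edgeR adjusted p = 0.0347). This call was lost when any of cattle 2, cattle 3, pig 1, pig 2 or pig 3 was left out. It was also lost with unnamed clusters left out of the other cells. Beside the RNF17 result, the other cells of pig held higher levels than those of cattle for the summed members (40.9 to 60.8 against 9.17 to 15.4 CPM), and without unnamed clusters 18.5 to 59.6 against 9.07 to 15.2 CPM, the lowest pig value being that of pig 2. The part of free RNA in the pig values and the part of the annotation in the difference were not tested.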

How the results depend on the processing

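All 10 members kept a positive fold change over other cells in both species under each alternative run. Without 1 animal, genes called ranged from 3581 to 8472 in cattle (7080 with all animals) and members called from 9 to 10. In pig they ranged from 2283 to 3496 (5669 with all) and from 5 to 9, the lowest without pig 2. For the difference between species they ranged from 649 to 1916 (1962 with all), lowest without cattle 2, and from 1 to 2. In that comparison the replicate block called 3473 genes and 4 members, library size alone called 7 members, DESeq2's size factors 2 (1161 genes higher and 968 lower), DESeq2's test 4 (1416 and 1142) and at least 500 UMIs per cell 2. PLD6, not called there (0.45), became -0.23 with the replicate block, and ranged from -0.80 (without cattle 1) to 1.60 without 1 animal. In the early meiotic-like comparison (1601 genes) the replicate block called 3335 genes and 2 members and DESeq2's test 734 genes. Values near 0 changed sign there: MOV10L1 (-0.16) became 0.18 with the block and 0.12 with library size alone, and PLD6 (-0.26) became 0.036 with library size alone. The block changed no other call of a member. The cause of these changes was not tested. Leaving out a pig there leaves no residual degrees of freedom, so it was not run. The median share of germ-like cells with a UMI over the members was 8.22% in cattle and 4.54% in pig after thinning, and 37% and 29.6% without. Germ-like sums held 22 UMIs or fewer for PIWIL2 and PLD6 in each of the cattle, for DDX4, TDRD1, RNF17 and MOV10L1 in cattle 1, for TDRD9 in each pig, for MOV10L1 in pig 1 and 2 and for PIWIL2 in pig 1, which limits those values. The alternative without the UCHL1-led cluster was chosen after seeing the data.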
